A study of Mesocricetus auratus with 38 samples.

Results

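Combined metabolic activators (CMA) were compared with placebo in the livers of hamsters on a high-fat diet (HFD), with both CMA doses taken as 1 group. The CMA group held the 19 libraries whose treatment label was HFD+MI_D1 (Dose I, 9 libraries) or HFD+MI_D2 (Dose II, 10 libraries), and the HFD group held the 10 libraries labelled HFD, so 29 of the 38 liver RNA-seq libraries entered the comparison. The other 9, labelled Chow diet and called Control here, came from hamsters on a normal diet and appear as levels and, 8 of them, in an alternative fit. All were male Golden Syrian hamsters, aged 22 weeks by the labels, and the HFD animals got a placebo. The HFD drew 23% of its calories from fat and carried 1 g/kg of cholesterol, against 11% of calories in the normal diet, and was eaten for 12 weeks. CMA was given in the last 4 of those weeks as L-carnitine (as its tartrate), N-acetyl-L-cysteine (NAC), nicotinamide riboside (NR) and betaine. At Dose I the first 3 were given at 200 mg/kg each and betaine at 400 mg/kg, and at Dose II these amounts were 400 and 800 mg/kg. L-carnitine, NAC and NR were licked in diluted condensed milk and betaine was in the drinking water. All animals of a dose got the whole mixture, so the contributions of the 4 ingredients cannot be told apart. The paper reports a significantly lower body weight gain at Dose II than in HFD animals. Effects of the mixture and of the lower weight gain cannot be told apart here. Animals were killed after 6 h of fasting. Each library was taken as 1 animal, and since no label names the animal, p-values measure the spread between libraries. A library's name joins its label number to H (HFD), DI (Dose I) or DII (Dose II). These numbers ran in consecutive blocks by group, so anything done in that order cannot be told apart from treatment.

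Betaine gives a methyl group to homocysteine in the liver, which yields methionine and dimethylglycine, and dimethylglycine is then oxidised through sarcosine to glycine with the help of folate. Glycine N-methyltransferase makes sarcosine from glycine and uses up S-adenosylmethionine, the methyl donor made from methionine. Homocysteine that is not remethylated passes through transsulfuration to cysteine, the amino acid that NAC supplies, and from there to glutathione, taurine or sulfate. NR is a precursor of NAD, and carnitine carries long-chain fatty acids into mitochondria.

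Library totals ran from 4669860 to 8417320 estimated counts in CMA livers and from 5201900 to 6498370 in HFD livers. Albumin transcripts took 10.1% to 15.2% of the counts in CMA libraries and 11.3% to 15.8% in HFD libraries, and transcripts of mitochondrial DNA took 9.05% to 12.6% in CMA and 9.34% to 11.6% in HFD libraries. The rank correlation between a library's deviations and transcript length, a sign of RNA quality or fragment bias, had a median of -0.0079 in CMA libraries (-0.262 to 0.180) and 0.0833 in HFD libraries (-0.166 to 0.228). All 13 hepatocyte markers passed the filter on low counts, and none of the 13 markers of exocrine pancreas did. Levels below are CPM (counts scaled to the same library total) after TMM scaling, given as the lowest, median and highest library of a group, and they are not per length, so they compare libraries and not genes. Fold changes are log2 values of CMA over HFD with their standard error. A gene that rose, fell or was called had an adjusted p below 0.1 in edgeR's quasi-likelihood test, and a call was kept if it passed in each of the 29 fits that left out 1 library.

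Of 8885 genes tested, 379 differed between CMA and HFD livers, or 4.27%. A total of 215 rose (2.42%) and 164 fell (1.85%), so 56.7% of the called genes were higher in CMA. The changes were small, with a median size of 0.39 on the log2 scale, and 26 genes passed a 2-fold change (14 higher and 12 lower). No gene separated all 19 CMA libraries from all 10 HFD libraries in either direction, so 0% of genes did. The calls of 49.8% of the genes that rose and 35.4% of those that fell were kept. Leaving out H114 gave 1.41% of tested genes that rose and 1.15% that fell, leaving out H117 gave 1.60% and 1.11%, and leaving out H118 gave 0.920% that fell. The split between higher and lower was different with limma on log2(TPM + 1), which changed the unit and the test together. In that fit 1.26% of tested genes rose and 4.38% fell, which made 22.4% of the calls higher, and the median over all genes was -0.056 against -0.0017 in the count fit.

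The first principal component of the 500 most variable genes, with 21.9% of the variance, also differed between CMA and HFD livers. Scores were -10.8, 3.39 and 15.4 in CMA libraries (lowest, median and highest), against -14.7, -4.18 and 3.61 in HFD libraries. The groups overlapped. The means differed by 7.79 (two-sided permutation test, p = 0.0114, adjusted p = 0.0279 over 4 comparisons). With all tested genes in place of the 500, the difference was 8.95 and p was 0.0849.

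The doses themselves were not told apart by any gene. Dose II against Dose I gave 0 called genes of 8885 (0%) with edgeR's quasi-likelihood test, with 248 (2.79%) at an unadjusted p below 0.05, and DESeq2 also gave 0, with 246 at an unadjusted p below 0.05. Set against the same 10 HFD libraries, Dose I gave 8 called genes (0.0900%) and Dose II gave 402 (4.52%), so pooling the 19 libraries did not add to the number called with the 10 Dose II libraries. The Dose II count was 248 without H114, 264 without H117, 221 without DII135 and 265 without DII136. The Dose I count moved by over 1.5 times in 19 of the 29 fits that left out a library, between 2 (without H113, H114, H117, H118, DI121 or DI128) and 49 (without DI122). Of the 379 genes called with the doses pooled, 8 were also called at Dose I and 285 at Dose II. Among the 379, 25 had an unadjusted p below 0.05 between the doses.

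Of 7 tested genes in a list named betaine and sarcosine breakdown, 3 rose and none fell (list median 0.25, against -0.0017 for all tested genes), and all 3 calls were kept. Over all tested genes 2.42% rose and 1.85% fell, and these shares also belong beside the list counts below. The list also holds neighbouring steps, and of the 3 risers Gnmt and Bhmt2 are such steps and not breakdown enzymes of betaine or sarcosine. Dmgdh, which oxidises dimethylglycine to sarcosine, had the smallest adjusted p of all genes. Its levels were 308, 453 and 559 CPM in CMA livers, against 209, 287 and 341 CPM in HFD livers. The groups barely overlapped, with 18 of 19 CMA libraries above the highest HFD library (log2 fold change 0.66 ± 0.08, adjusted p = 4.2e-05). Gnmt, glycine N-methyltransferase, had 1009, 2689 and 3595 CPM in CMA livers, against 669.6, 1247 and 1661 CPM in HFD livers. A total of 16 CMA libraries exceeded every HFD library (1.05 ± 0.18, adjusted p = 0.00161). Bhmt2, which remethylates homocysteine in rodents with S-methylmethionine as its best-known donor, had 219, 393 and 523 CPM in CMA livers, against 180.5, 250.5 and 336 CPM in HFD livers. Most CMA libraries, 12 of 19, lay above the HFD range (0.64 ± 0.12, adjusted p = 0.00545). Its near relative Bhmt, which uses betaine itself, was not analysed here, and reads of the pair could have been assigned to either. Sardh, which oxidises sarcosine to glycine, did not pass (0.25 ± 0.10, adjusted p = 0.162), nor did Chdh, which makes betaine from choline (0.20 ± 0.08, adjusted p = 0.211).

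Dmgdh and Gnmt were also among the genes with unadjusted differences between the doses. Gnmt stood at 0.81 ± 0.19 at Dose I and 1.24 ± 0.18 at Dose II against HFD, with p = 0.0273 between the doses in edgeR's test and an adjusted p of 0.9999. Dmgdh stood at 0.55 ± 0.09 at Dose I and 0.75 ± 0.09 at Dose II, with p = 0.0368 and an adjusted p of 0.9999. A dose difference was therefore not detected for either gene after adjustment.

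Of 14 tested genes of the methionine cycle and transsulfuration, 4 rose and none fell (median 0.091), and the 4 calls were kept. They were Gnmt and Bhmt2, counted here too, and the transsulfuration genes Cth and Cbs. Cth, cystathionine gamma-lyase, which releases cysteine, had 239.7, 413 and 509 CPM in CMA livers, against 190.4, 278 and 368 CPM in HFD livers. The ranges overlapped in their lower part, with 10 CMA libraries above the HFD range (0.54 ± 0.11, adjusted p = 0.00951). Cbs, cystathionine beta-synthase, the step before it, rose by 0.34 ± 0.09 (adjusted p = 0.033), with medians of 317 CPM in CMA and 249 CPM in HFD livers. Mat1a, which makes S-adenosylmethionine in the liver, did not pass (0.067 ± 0.09, adjusted p = 0.749).

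Of 12 tested genes in a list named cysteine and taurine sulfur oxidation, 4 rose and none fell, and all 4 calls were kept. They were Sult1a1, Suox, Papss2 and Got1, which the urea cycle, arginine and ammonia list also holds. Sult1a1 and Papss2 act in the use of sulfate and not in the oxidation of cysteine sulfur. Sult1a1, a sulfotransferase that conjugates phenolic compounds, had one of the largest changes. Its levels were 94.7, 287 and 507 CPM in CMA livers, against 43.7, 78.2 and 160.1 CPM in HFD livers. All 19 CMA libraries were above the HFD median and 16 above the HFD range (1.74 ± 0.24, adjusted p = 0.000143). Papss2, which makes the sulfate donor that such enzymes use, rose by 0.60 ± 0.16 (adjusted p = 0.0438). Suox, which oxidises sulfite to sulfate, rose by 0.50 ± 0.10 (adjusted p = 0.0111), with 12 CMA libraries above the HFD range. Cdo1, which commits cysteine to taurine and sulfate, did not pass (0.065 ± 0.05, adjusted p = 0.546).

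**Figure D1:**
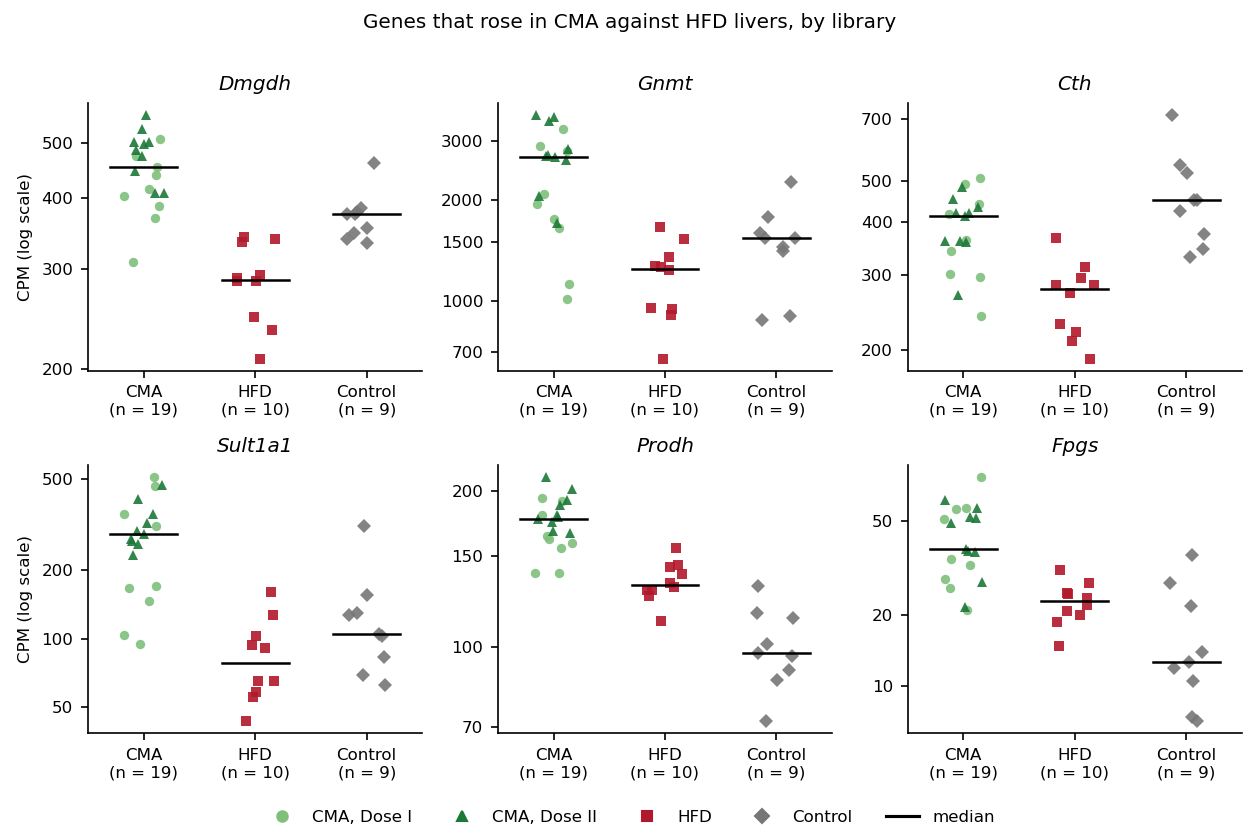
Levels of 6 genes that rose, as CPM on a log scale, with 1 point per library (circles Dose I, triangles Dose II, squares HFD, diamonds Control) and a bar at each group's median. Dmgdh, Gnmt, Sult1a1 and Prodh have at least 16 of 19 CMA libraries above every HFD library, while Cth and Fpgs overlap more.

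The folate cycle had 3 risers of 15 tested and none that fell, where 2.42% of all tested genes rose. Of the 3 risers, Fpgs and Shmt2 kept their calls. Fpgs, which adds the glutamate tail that holds folates in the cell, had 20.9, 38.1 and 76.4 CPM in CMA livers, against 14.8, 22.8 and 31.0 CPM in HFD livers. The groups overlapped in their lower part, with 14 CMA libraries above the HFD range (0.91 ± 0.17, adjusted p = 0.00615). Shmt2, the mitochondrial enzyme that interconverts serine and glycine, rose by 0.54 ± 0.13 (adjusted p = 0.0198), with all 19 CMA libraries above the HFD median. Mthfd1, which carries folate one-carbon units between oxidation states, was at the edge of the threshold (0.22 ± 0.07, adjusted p = 0.0989), and its call was lost in 22 of the 29 fits that left out a library.

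Glycine, serine and threonine metabolism had 4 risers of 19 tested and none that fell. Gnmt and Shmt2 were joined by Sds, serine dehydratase, which turns serine into pyruvate, and by Dao, which oxidises D-amino acids. Sds had 43.6, 79.0 and 410.3 CPM in CMA livers, against 18.3, 40.4 and 79.5 CPM in HFD livers. The groups overlapped, but all 19 CMA libraries were above the HFD median (1.18 ± 0.32, adjusted p = 0.0438). Dao rose by 0.31 ± 0.09 (adjusted p = 0.0563) and lost its call without H113, H114 or H117. Phgdh, the first enzyme of serine synthesis, did not pass (-0.56 ± 0.28, adjusted p = 0.304).

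Proline and hydroxyproline breakdown held a pair of genes among the 10 strongest risers, and of 16 tested these 2 rose, none fell and both calls were kept. Prodh, proline dehydrogenase, had 139, 177 and 213 CPM in CMA livers, against 112.2, 131.8 and 155 CPM in HFD livers. The groups nearly separated, with 17 CMA libraries above the HFD range (0.38 ± 0.06, adjusted p = 0.00141). Hoga1, which splits the last intermediate of hydroxyproline breakdown into pyruvate and glyoxylate, had 337, 396 and 513 CPM in CMA livers, against 205, 314 and 363 CPM in HFD livers. A total of 15 CMA libraries were above the HFD range (0.43 ± 0.08, adjusted p = 0.00308).

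Other genes among the 10 strongest risers came from outside these pathways. Insrr, a receptor tyrosine kinase related to the insulin receptor, was low, with 1.94, 4.24 and 7.01 CPM in CMA livers, against 1.26, 2.01 and 2.87 CPM in HFD livers (1.14 ± 0.21, adjusted p = 0.00461). Its groups overlapped in their lower part. Pnkd rose by 1.04 ± 0.18 (adjusted p = 0.00176) and Ung, a uracil-DNA glycosylase of DNA repair, by 0.49 ± 0.09 (adjusted p = 0.00599), and for both all 19 CMA libraries were above the HFD median.

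The urea cycle, arginine and ammonia list had 5 risers of 22 tested and none that fell (median 0.23), where 2.42% of all tested genes rose. Of the 5 risers, Gpt2, Got1 and Cps1 kept their calls. Gpt2, the mitochondrial alanine aminotransferase, had 106.9, 218 and 383 CPM in CMA livers, against 73.9, 119.6 and 185 CPM in HFD livers. The groups overlapped, with 13 CMA libraries above the HFD range (0.88 ± 0.18, adjusted p = 0.00916). Got1, the cytosolic aspartate aminotransferase, had 203, 249 and 564 CPM in CMA livers, against 170.1, 198 and 217 CPM in HFD livers. Only the 2 lowest CMA libraries reached into the HFD range (0.51 ± 0.12, adjusted p = 0.0246). Cps1, the rate-limiting enzyme of the urea cycle, had 3980.3, 5351 and 8344 CPM in CMA livers, against 2960.2, 4026 and 5936 CPM in HFD livers. The ranges overlapped widely, with 18 CMA libraries above the HFD median (0.43 ± 0.11, adjusted p = 0.0365). Of the later enzymes, Ass1 (0.42 ± 0.12, adjusted p = 0.0646) and Asl (0.38 ± 0.12, adjusted p = 0.0957) lost their calls in 6 and 17 of the 29 fits that left out a library. The list count was 3 without H113, H114, H115, H117 or H118. Otc (0.063 ± 0.08, adjusted p = 0.719) and Arg1 (0.20 ± 0.12, adjusted p = 0.402) did not pass.

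Several of these enzymes belong to hepatocytes near the portal vein, where urea synthesis and gluconeogenesis are strongest. Of 18 tested periportal genes, 7 rose and 1 fell (median 0.17), where 2.42% of all tested genes rose and 1.85% fell. None of 12 tested pericentral genes was called in either direction (median 0.11, 3 at an unadjusted p below 0.05 in edgeR's test, 0 called by DESeq2). With 4.27% of all tested genes called, a list of 12 can hold none without standing apart. The difference between the lists was not tested. Etnppl, which breaks down phosphoethanolamine, had 49.3, 106.8 and 211 CPM in CMA livers, against 37.1, 53.03 and 94.8 CPM in HFD livers. The groups overlapped, with 11 CMA libraries above the HFD range (0.91 ± 0.20, adjusted p = 0.0111). Cyp2f2 rose by 0.55 ± 0.16 (adjusted p = 0.0563), a call that was lost without H114. Pck1, the rate-limiting enzyme of gluconeogenesis, rose by 0.63 ± 0.19 (adjusted p = 0.0818), a call lost in 11 of the 29 fits that left out a library. Aldh1b1 was the periportal gene that fell (-0.35 ± 0.09, adjusted p = 0.0307). The 3 periportal risers that kept their calls were Etnppl, Cps1 and Sds, and the count dropped by more than 1.5 times without H113, H114, H115, H117 or H118, to 3 at the lowest.

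Branched-chain amino acid breakdown had 5 risers of 33 tested and none that fell, of which Ppm1k and Mmaa kept their calls. The list count dropped to 3 without H113 and moved by over 1.5 times without any 1 of 14 libraries. Ppm1k, the phosphatase that switches on the branched-chain ketoacid dehydrogenase, rose by 0.56 ± 0.14 (adjusted p = 0.0261), with medians of 169.7 CPM in CMA and 110.5 CPM in HFD livers. Mmaa, which handles the cobalamin cofactor of propionate metabolism, rose by 0.19 ± 0.05 (adjusted p = 0.0469). Mccc1, of leucine breakdown, rose by 0.19 ± 0.05 (adjusted p = 0.0487), a call lost without H117. The calls of both Mmaa and Mccc1 were also lost in the TPM fits, where 1 gene of the list was called. Bcat2, the first transaminase of the pathway, was near the threshold (0.54 ± 0.17, adjusted p = 0.0929). In the breakdown of aromatic amino acids and histidine, 2 of 15 rose and neither call was kept, with counts from 0 (without H114) to 4 (without H110). One was Hpd, the second enzyme of tyrosine breakdown (0.28 ± 0.08, adjusted p = 0.0464), which was lost without H114 or H118.

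**Figure D2:**
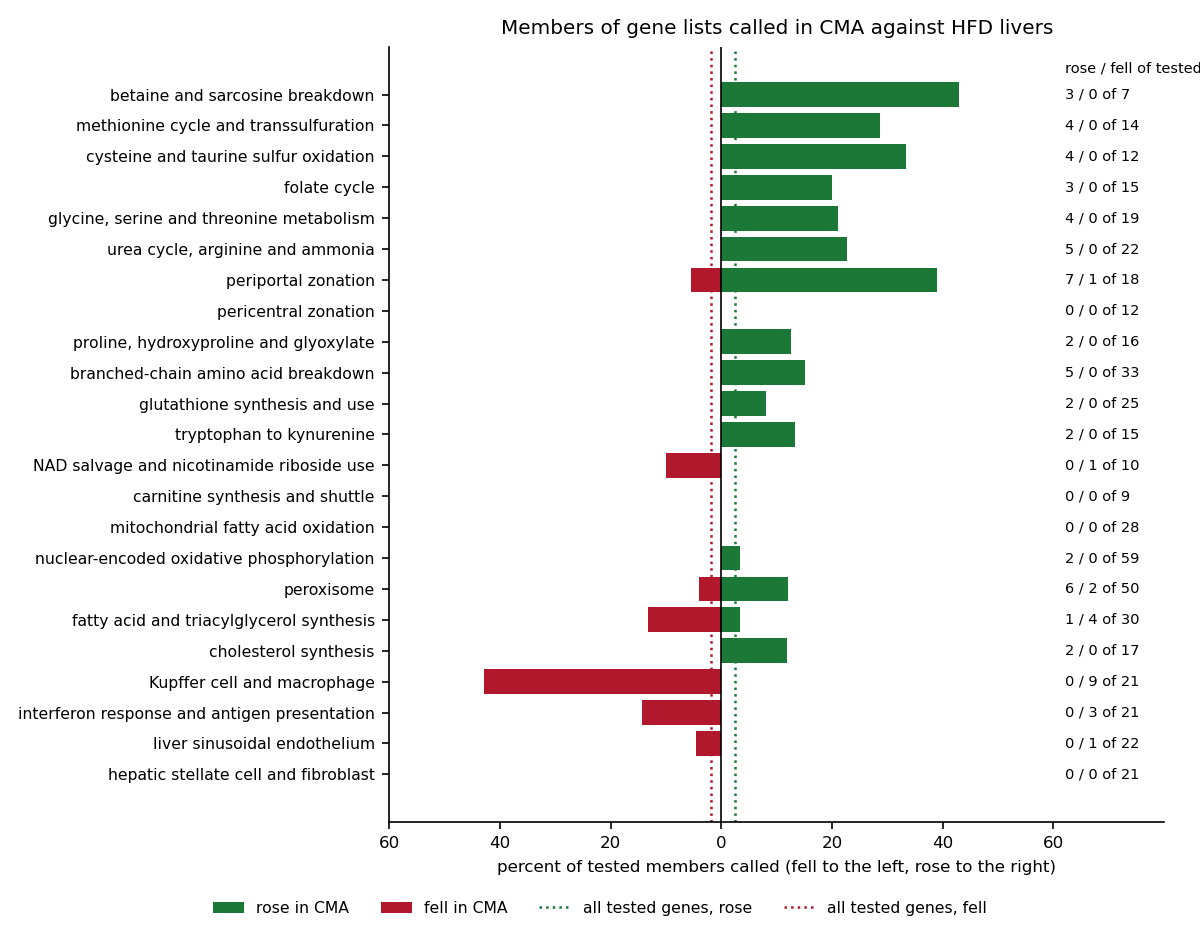
Share of the tested members of 23 gene lists called in CMA against HFD livers, as percent on the horizontal axis, with members that rose to the right and members that fell to the left. Dotted lines mark the shares over all 8885 tested genes, 2.42% that rose and 1.85% that fell, and the counts stand at the right edge. The amino acid, sulfur and periportal lists extend to the right, and the macrophage list extends farthest to the left with 9 of 21.

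Of 25 tested genes of glutathione synthesis and use, 2 rose and none fell (median 0.11), where 2.42% of all tested genes rose. Gstk1, a glutathione transferase of mitochondria and peroxisomes, rose by 0.35 ± 0.08 (adjusted p = 0.0136), and its call was kept. Gpx4, which reduces lipid hydroperoxides in membranes, rose by 0.25 ± 0.07 (adjusted p = 0.0531) and lost its call without H117 and in both TPM fits. The list count was 1 without H117 and 5 without H110 or DI122. Gclc, the catalytic subunit of the rate-limiting enzyme of glutathione synthesis, did not pass (-0.026 ± 0.13, adjusted p = 0.942), nor did Gpx1 (0.27 ± 0.10, adjusted p = 0.125). Of 21 peroxiredoxin and thioredoxin genes, Msrb2, a methionine sulfoxide reductase (0.17 ± 0.05, adjusted p = 0.0457), and Glrx5, of iron-sulfur cluster assembly (0.25 ± 0.07, adjusted p = 0.0461), rose. The Msrb2 call was lost without H117, and the Glrx5 call without H115. Of 15 targets of Nrf2, the oxidant-sensing transcription factor, 1 rose (Cbr3, not kept) and 2 fell (Me1 and Hmox1, both kept). Hmox1, which breaks down heme and is abundant in macrophages, had 13.1, 18.6 and 24.7 CPM in CMA livers, against 19.1, 21.6 and 31.9 CPM in HFD livers. A total of 12 CMA libraries were below the HFD range (-0.42 ± 0.10, adjusted p = 0.018). Nqo1, a classic Nrf2 target, did not pass (-0.099 ± 0.11, adjusted p = 0.68).

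Other lists covered genes that handle NR and carnitine. Where 2.42% of all tested genes rose, none of 10 tested genes of NAD salvage and NR use did, and 1 fell. That gene, Nt5e, an ectoenzyme that cuts nucleotides outside the cell, was close to the threshold (-0.19 ± 0.06, adjusted p = 0.0938) and lost its call in 16 of 29 fits that left out a library. Nampt, the rate-limiting enzyme of salvage from nicotinamide, had medians of 116.4 CPM in CMA and 114.5 CPM in HFD livers (log2 fold change -0.0041 ± 0.07, adjusted p = 0.983). Nmrk1, the NR kinase, did not pass (0.11 ± 0.09, adjusted p = 0.55). None of 16 sirtuins and other NAD-consuming enzymes was called by edgeR's test (3 at an unadjusted p below 0.05), against 4.27% of all tested genes, and DESeq2 called 1 as higher. Of 15 genes from tryptophan to kynurenine, the de novo route to NAD, 2 rose and none fell (median 0.17). Tdo2, the first and rate-limiting enzyme, had 372, 595 and 1366 CPM in CMA livers, against 269, 397 and 502 CPM in HFD livers. The groups overlapped, with 11 CMA libraries above the HFD range (0.65 ± 0.17, adjusted p = 0.0313), and the call was kept. Afmid, the next step, was at the edge (0.21 ± 0.07, adjusted p = 0.0989, lost in 20 of the 29 fits), and Kynu did not pass (0.21 ± 0.07, adjusted p = 0.12).

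None of 9 genes of carnitine synthesis and the carnitine shuttle was called (median -0.14), and none of 28 genes of mitochondrial fatty acid oxidation (median 0.032), against 4.27% of all tested genes. Cpt1a, the rate-limiting step of fatty acid entry into mitochondria, had 71.6, 151 and 227 CPM in CMA livers, against 85.1, 185 and 285 CPM in HFD livers. Its groups overlapped almost fully (-0.28 ± 0.15, adjusted p = 0.337). Acadm, a medium-chain acyl-CoA dehydrogenase, had medians of 991 CPM in CMA and 1002 CPM in HFD livers, and did not pass (adjusted p = 0.975). At an unadjusted p below 0.05, edgeR's test had 3 genes of the carnitine list and 6 of the fatty acid oxidation list, and DESeq2 called 1 gene of the carnitine list as lower and 1 of the oxidation list as higher.

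Medium-chain acyl-CoA synthetases, which activate fatty acids inside liver mitochondria, were listed with glycine conjugation. Of the 5 tested genes 3 rose and none fell (median 0.25). Acsm1 had 747, 903 and 1075 CPM in CMA livers, against 576, 764 and 813 CPM in HFD livers. Only the 3 lowest CMA libraries fell within the HFD range (0.25 ± 0.06, adjusted p = 0.0122). Acsm5 rose by 0.36 ± 0.10 (adjusted p = 0.0461), a call lost in both TPM fits, where 1 of the list was called. These genes are close relatives in sequence, so the assignment of reads among them is uncertain. Of 6 acyl-CoA thioesterases, which release the fatty acid again, Acot12 fell (-0.41 ± 0.12, adjusted p = 0.061), with all 19 CMA libraries below the HFD median. Its call was lost without H116, H117 or H118. The list median was -0.34, 2 of the 6 genes had a log2 fold change above 0, and 5 had an unadjusted p below 0.05 in edgeR's test.

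The peroxisome list was mixed, with 6 risers and 2 genes that fell of 50 tested, where 2.42% of all tested genes rose and 1.85% fell. Abcd3, which carries branched-chain and other acyl-CoAs into peroxisomes, fell (-0.50 ± 0.11 on the log2 scale, adjusted p = 0.0122), as did Gnpat, which starts plasmalogen synthesis (-0.61 ± 0.15, adjusted p = 0.0235), and both calls were kept. Mpv17l, a membrane protein tied to peroxide handling, rose by 0.75 ± 0.18 (adjusted p = 0.0214). The count of risers moved by more than 1.5 times without H113, H114 or H117, to 2 at the lowest. Of 59 nuclear genes of oxidative phosphorylation, 2 rose and none fell (median 0.10), near the 2.42% of all tested genes that rose. Neither call was kept. Counts ran from 0 (without H111) to 6 (without H110) and moved by over 1.5 times in 22 of the 29 fits. Of the 59, 58 had a log2 fold change above 0, against 49.5% of all tested genes. The list median was 0.036 on log2(TPM + 1), where the median over all genes was -0.056. The rank correlation with transcript length had a median of -0.0079 in CMA and 0.0833 in HFD libraries. The part of transcript length in the shift of this list was not tested. Outside that list, Idh2, the mitochondrial NADP-dependent isocitrate dehydrogenase, rose by 0.29 ± 0.07 (adjusted p = 0.0268).

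Several genes of fat synthesis and storage fell. Of 30 tested genes of fatty acid and triacylglycerol synthesis, 4 fell and 1 rose (median -0.12), where 1.85% of all tested genes fell and 2.42% rose. The calls of Acly, Me1 and Elovl2 were kept. Me1, malic enzyme, which supplies NADPH for fatty acid synthesis, had 36.5, 71.5 and 156 CPM in CMA livers, against 68.8, 154 and 309.7 CPM in HFD livers. Nearly all CMA libraries, 18 of 19, were below the HFD median, and 9 were below the HFD range (-1.0 ± 0.23, adjusted p = 0.0136). Elovl2, which lengthens polyunsaturated fatty acids, had 154, 177 and 294 CPM in CMA livers, against 199, 255 and 332 CPM in HFD livers. The groups overlapped, with 12 CMA libraries below the HFD range (-0.44 ± 0.10, adjusted p = 0.0136).

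Acly, ATP citrate lyase, which makes cytosolic acetyl-CoA, rested on a few HFD livers. Its levels were 7.67, 17.1 and 49.9 CPM in CMA livers, against 13.7, 23.7 and 474 CPM in HFD livers. The libraries H111, H112 and H113 stood at 474, 193 and 142 CPM, whereas the other 7 ran from 13.7 to 28.0 CPM and lay inside the CMA range. The fold change of -2.09 ± 0.45 (adjusted p = 0.0111) shrank to -1.25 without H111, and the call was lost in both TPM fits. The Control median was 653 CPM. Acaca, the rate-limiting enzyme of fatty acid synthesis, did not pass (-0.54 ± 0.23, adjusted p = 0.217), nor did Srebf1, a transcription factor that drives the pathway (0.13 ± 0.10, adjusted p = 0.516), or Dgat2, of the last step of triacylglycerol synthesis (0.34 ± 0.13, adjusted p = 0.173). Fasn and Scd were not analysed here.

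Of 28 genes of lipid droplets and fatty acid uptake, 2 fell and none rose, where 1.85% of all tested genes fell, and neither call was kept. Pnpla3, a lipid droplet lipase, had 16.8, 54.7 and 121.2 CPM in CMA livers, against 46.2, 109.9 and 248 CPM in HFD livers. A total of 18 CMA libraries were below the HFD median (-1.13 ± 0.31, adjusted p = 0.0469), and the call was lost without H111. Plin2, the main coat protein of liver lipid droplets, had 18.7, 271 and 886 CPM in CMA livers, against 346, 626 and 2539 CPM in HFD livers. The spread was wide in both groups, with 12 CMA libraries below the HFD range (-1.32 ± 0.40, adjusted p = 0.0774), and the call was lost without H114, H116, H117, H118 or DII136. Mlxipl, which encodes the sugar-sensing factor ChREBP, was the gene of the synthesis list that rose, with 303, 384 and 459 CPM in CMA livers, against 252, 295 and 455 CPM in HFD livers. All 19 CMA libraries were above the HFD median (0.29 ± 0.08, adjusted p = 0.0563), but the call was lost without H111 or H114 and in both TPM fits. In cholesterol synthesis 2 of 17 rose and none fell, where 2.42% of all tested genes rose. The list median was -0.14, of the opposite sign, and neither call was kept. The median was 0.064 at Dose I and -0.28 at Dose II. None of 24 genes of bile acid synthesis and transport was called, against 4.27% of all tested genes. Cyp7a1, the rate-limiting enzyme of that synthesis, was among the 24 (-0.10 ± 0.37, adjusted p = 0.918). At an unadjusted p below 0.05 there were 3 of the 24 in edgeR's test, and DESeq2 called 1 as higher.

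**Figure D3:**
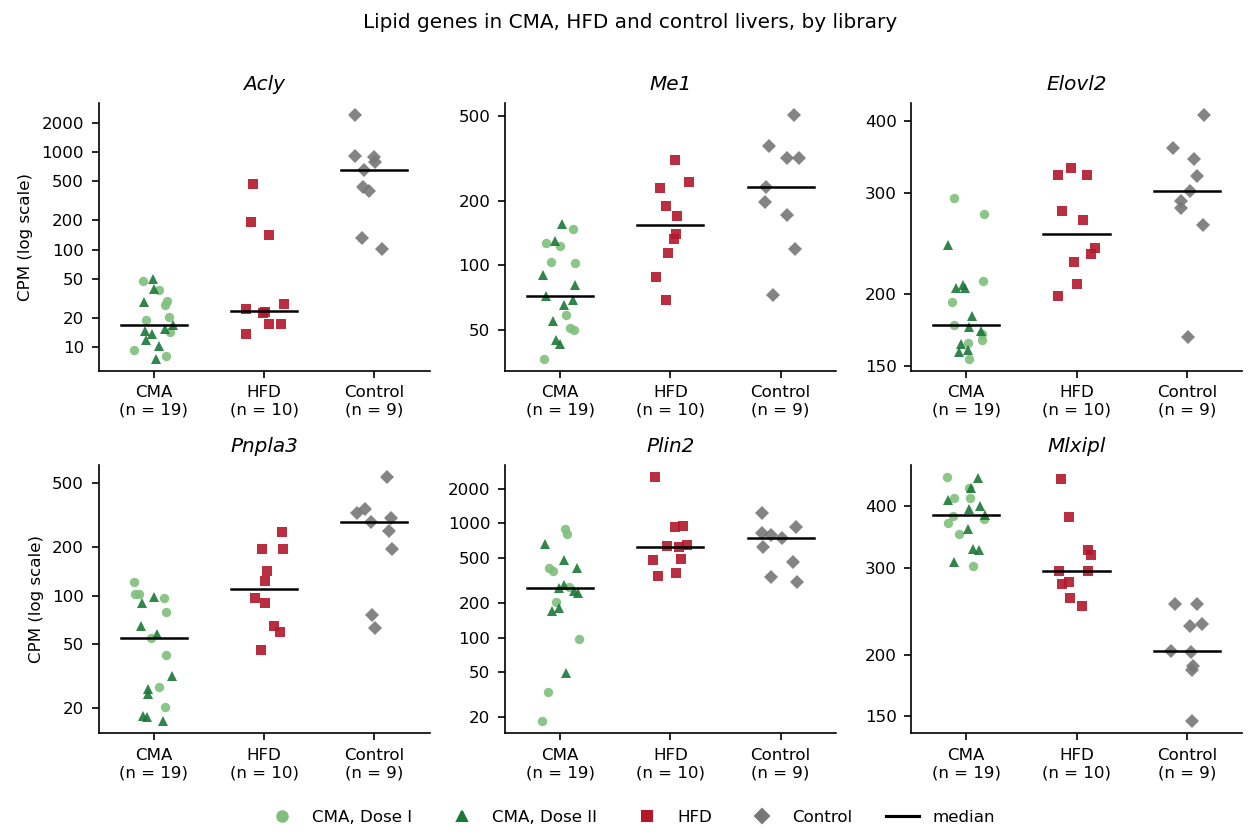
Levels of 6 genes of fat synthesis and storage, as CPM on a log scale, with 1 point per library (circles Dose I, triangles Dose II, squares HFD, diamonds Control) and a bar at each group's median. H111, H112 and H113 stand above all other HFD and CMA libraries for Acly, the 9 lowest CMA libraries of Me1 lie below every HFD library, and Mlxipl is the gene that is higher in CMA.

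Of the 27 enzymes listed as rate-limiting for their pathways, 3 rose (Tdo2, Cps1 and Pck1) and none fell, and Tdo2 and Cps1 kept their calls. The 35 genes that the study names as raised at Dose II held 23 that rose and none that fell with the doses pooled. That list was drawn by the study from the Dose II libraries used here, so its direction is no independent evidence. The 12 that did not pass (Acot8, Aldh2, Aldh9a1, Bckdha, Gpt, Gpx1, Kynu, Mccc2, Prdx5, Sardh, Sdhb and Slc27a5) had log2 fold changes from 0.11 (Sdhb) to 0.28 (Bckdha). A total of 14 of the 23 kept their calls, and 15 were called without H117.

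Retinoid and drug-handling genes rose in a few cases. Of 27 tested genes of retinoid metabolism, 3 rose and 1 fell, where 2.42% of all tested genes rose and 1.85% fell. The 3 rising calls were kept. Cyp26a1, which degrades retinoic acid and is itself switched on by it, had the largest fold change of the 8885 tested genes, at low levels. It had 1.37, 3.73 and 26.4 CPM in CMA livers, against 0.337, 1.25 and 2.18 CPM in HFD livers. All 19 CMA libraries were above the HFD median and 15 above the HFD range (2.66 ± 0.52, adjusted p = 0.00704). Rara, a retinoic acid receptor, rose by 0.39 ± 0.09 (adjusted p = 0.018), and Rbp4, the plasma carrier of retinol, by 0.20 ± 0.05 (adjusted p = 0.0257). Rdh14, a retinol dehydrogenase, fell (-0.19 ± 0.06 on the log2 scale, adjusted p = 0.073), a call lost without H113, H114, H115, H117 or H118. Of 17 tested cytochrome P450 genes, 3 rose and none fell, and Cyp4f14 (0.39 ± 0.08, adjusted p = 0.0116) and Cyp3a13 (0.27 ± 0.07, adjusted p = 0.0308) kept their calls. Nr1i3, the nuclear receptor CAR that regulates drug-handling genes, had 255, 340.5 and 446 CPM in CMA livers, against 189, 266 and 306 CPM in HFD livers. Most CMA libraries, 15 of 19, lay above the HFD range (0.40 ± 0.08, adjusted p = 0.00916). It was the 1 called gene in a list of 34 nuclear receptors and coactivators that does not hold Rara, and the count was 2 without H112 or DII133.

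Of 21 tested markers of Kupffer cells, the resident macrophages of the liver, and of other macrophages, 9 fell and none rose (median -0.40, against -0.0017 for all tested genes), and 19 of the 21 had a log2 fold change below 0. In whole liver, fewer macrophages and less of these transcripts per macrophage cannot be told apart. Marco, a scavenger receptor, had 38.3, 56.9 and 97.1 CPM in CMA livers, against 63.2, 90.9 and 111.7 CPM in HFD livers. A total of 14 CMA libraries were below the HFD range (-0.54 ± 0.13, adjusted p = 0.0197). Clec4f, a Kupffer cell lectin in rodents, had 13.8, 20.4 and 37.8 CPM in CMA livers, against 23.3, 31.1 and 43.9 CPM in HFD livers, and 12 CMA libraries were below the HFD range (-0.48 ± 0.13, adjusted p = 0.0531). Cd5l, a protein secreted by macrophages, fell (-0.51 ± 0.13 on the log2 scale, adjusted p = 0.0269), as did Mpeg1, a pore-forming protein of phagocytes (-0.46 ± 0.13, adjusted p = 0.0445). The calls of these 4 genes were kept.

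The other 5 macrophage calls were each lost in at least 1 of the fits that left out a library. Timd4, a phosphatidylserine receptor of resident macrophages (-0.60 ± 0.16, adjusted p = 0.0377), was lost without H117. Csf1r, the receptor for the growth factor of macrophages (-0.37 ± 0.11, adjusted p = 0.0576), was lost without H113 or H117, and Cd74, the invariant chain of antigen presentation (-0.38 ± 0.11, adjusted p = 0.0563), without H113 or H118. Tyrobp, a signalling adaptor of myeloid cells (-0.56 ± 0.17, adjusted p = 0.0649), was lost without H113, H114 or H118, and C1qb, of complement (-0.39 ± 0.13, adjusted p = 0.0978), in 16 of the 29 fits. The count over the list was 5 without H113, and 13 without DI122. DESeq2 called 12 that fell and 1 that rose. Adgre1, which encodes the macrophage antigen F4/80 (-0.52 ± 0.17, adjusted p = 0.109), Vsig4 (-0.61 ± 0.23, adjusted p = 0.158) and Cd163 (-0.38 ± 0.22, adjusted p = 0.384) did not pass. Cd68 was not analysed here.

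**Figure D4:**
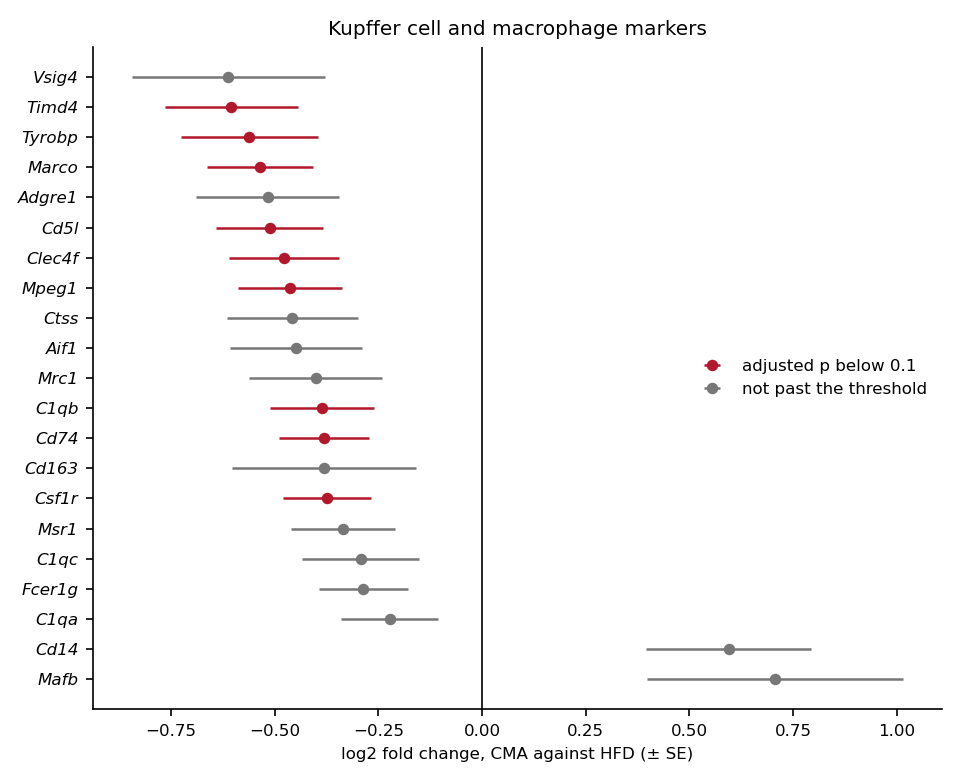
Log2 fold changes of CMA against HFD (points, bars ± SE) for the 21 tested Kupffer cell and macrophage markers, sorted from the lowest at the top, with the 9 that fell in red. Of the 21 points, 19 lie left of 0, and the pair to the right of it did not pass the threshold.

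The summed level of the macrophage markers was 414, 550 and 813 CPM in CMA livers, against 555, 731 and 938 CPM in HFD livers. The groups overlapped between 555 and 813 CPM. Mmp12, a protease that macrophages release, and Fcgr4, an antibody receptor of myeloid cells, were outside the marker list and among the 10 strongest falls. Mmp12 had 8.89, 11.7 and 22.2 CPM in CMA livers, against 12.3, 19.6 and 32.1 CPM in HFD livers, with 13 CMA libraries below the HFD range (-0.77 ± 0.15, adjusted p = 0.00778). Fcgr4 had 11.7, 16.6 and 26.9 CPM in CMA livers, against 19.6, 28.1 and 34.6 CPM in HFD livers. All 19 CMA libraries were below the HFD median and 14 below the HFD range (-0.61 ± 0.12, adjusted p = 0.00906).

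Few markers of other cell types were called. Of 22 tested markers of sinusoidal endothelium, 1 fell (median -0.12, 19 of 22 with a log2 fold change below 0), with a summed level of 346 to 503 CPM in CMA livers and 356 to 609 CPM in HFD livers. That gene, Cdh5, a junction protein of endothelium (-0.34 ± 0.10, adjusted p = 0.063), lost its call without H113, H115, H117 or H118. None of 21 markers of stellate cells and fibroblasts was called (16 of 21 below 0, summed level 383 to 698 CPM in CMA livers, against 402 to 736 CPM in HFD livers), none of 9 cholangiocyte markers (170 to 322 CPM in CMA livers, against 188 to 255 CPM in HFD livers), and none of the 4 lymphocyte and 2 neutrophil markers that were tested. At an unadjusted p below 0.05 there were 3 stellate cell, 2 cholangiocyte, 1 lymphocyte and 0 neutrophil markers, and DESeq2 also called none. With 4.27% of all tested genes called by edgeR's test, lists this small can hold none without standing apart. The part of cell composition in the other results was not tested.

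The interferon and antigen presentation list had 3 falls of 21 tested and no rise (median -0.24), where 1.85% of all tested genes fell. Ddx58, which encodes the viral RNA sensor RIG-I, had 2.57, 3.79 and 5.77 CPM in CMA livers, against 4.48, 5.38 and 9.03 CPM in HFD livers. A total of 12 CMA libraries were below the HFD range (-0.53 ± 0.14, adjusted p = 0.0307). Gbp2, an interferon-induced GTPase, fell (-0.58 ± 0.16 on the log2 scale, adjusted p = 0.0439), as did its near relative Gbp2b, among the 10 strongest falls (-0.77 ± 0.16, adjusted p = 0.0105). Reads of this pair could have been assigned to either gene. The third member that fell was Cd74, which the macrophage list also holds.

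The remaining strong falls included genes of traffic between the endoplasmic reticulum and the Golgi apparatus. Tmed3, a cargo receptor of that pathway, had 7.20, 8.996 and 12.9 CPM in CMA livers, against 11.1, 13.8 and 18.3 CPM in HFD livers. The groups nearly separated, with 17 CMA libraries below the HFD range (-0.61 ± 0.10, adjusted p = 0.000809). Scfd1, which helps such vesicles fuse, had 24.1, 28.9 and 34.2 CPM in CMA livers, against 31.0, 35.3 and 44.4 CPM in HFD livers, and all 19 CMA libraries were below the HFD median (-0.35 ± 0.07, adjusted p = 0.00704). Copb2 (-0.25 ± 0.05, adjusted p = 0.0111) and Copb1 (-0.28 ± 0.06, adjusted p = 0.0111), coat subunits of COPI vesicles, fell with kept calls. Of the 7 coat subunits tested, a list drawn up after Copb2 was seen, these 2 fell and none rose. In the list of 38 chaperones of the endoplasmic reticulum and the unfolded protein response, Tmed3 was the only call.

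Slc5a10, a kidney-type sugar transporter, had 4.62, 10.7 and 20.004 CPM in CMA livers, against 8.68, 19.3 and 47.4 CPM in HFD livers (-1.0 ± 0.20, adjusted p = 0.00794). Its groups overlapped, with 18 CMA libraries below the HFD median. Mtf1, the zinc-sensing factor that drives metallothionein genes, fell (-0.35 ± 0.07 on the log2 scale, adjusted p = 0.00836), as did Fam3c, a secreted protein (-0.41 ± 0.09, adjusted p = 0.0111). Abi1, a regulator of the actin skeleton, had 24.3, 33.7 and 41.01 CPM in CMA livers, against 37.9, 41.2 and 42.9 CPM in HFD livers. The groups nearly separated, with 18 of 19 CMA libraries below the HFD range, although the change was small (-0.30 ± 0.06, adjusted p = 0.00995).

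Transcript length moved with the groups to a small extent. Of 31 long transcripts of widely expressed genes, 3 fell and none rose (median -0.09), namely Trrap (-0.21 ± 0.06), Vps13d (-0.30 ± 0.09) and Huwe1 (-0.20 ± 0.06), and all 3 calls were lost with an offset for each library's trend with transcript length. The count was 1 without H115, H117 or H118. With that offset 211 genes rose and 159 fell over all genes, of which 320 were shared with the 379. All 12 macrophage markers called with that offset were lower in CMA.

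Pooling the doses called 94 genes that neither dose gave alone, 1.06% of those tested, of which 39 rose and 55 fell. The count was 47 without H114, 61 without H115, 49 without H117, 31 without H118, 186 without DI122, 59 without DI127 and 55 without DI128. Pooling also lost calls, as 285 of the 402 genes called at Dose II were called with the doses pooled. That loss was larger than the 94 gained. The comparisons share the HFD libraries, and each dose's own values are given beside the pooled one. The 10 of the 94 with the smallest adjusted p were Ddx58, Sds, Myadm, Mpeg1, Nfkbia, Slc25a30, Arhgef15, Cd74, Mlxipl and Cntnap1. Sds stood at 1.28 ± 0.36 at Dose I (adjusted p = 0.199) and 1.07 ± 0.35 at Dose II (adjusted p = 0.101), against 1.18 ± 0.32 for the pooled doses. Without DI127, the highest Dose I library for Sds, the pooled value was 0.91. Ddx58 stood at -0.59 ± 0.17 at Dose I (adjusted p = 0.199) and -0.48 ± 0.16 at Dose II (adjusted p = 0.102), the last just above the threshold. For Mpeg1 the values were -0.51 ± 0.15 at Dose I (adjusted p = 0.23) and -0.42 ± 0.15 at Dose II (adjusted p = 0.12).

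Nfkbia, which encodes the inhibitor that holds NF-kB in the cytoplasm, had 50.02, 67.5 and 97.1 CPM in CMA livers, against 37.7, 53.7 and 69.6 CPM in HFD livers. The groups overlapped, with 8 CMA libraries above the HFD range (0.35 ± 0.10, adjusted p = 0.0559), and the call was lost in both TPM fits. Its dose values were 0.38 ± 0.12 at Dose I and 0.32 ± 0.11 at Dose II. Myadm, a membrane protein, had 11.98, 20.05 and 31.3 CPM in CMA livers, against 10.01, 13.6 and 19.9 CPM in HFD livers, and 10 CMA libraries were above the HFD range (0.50 ± 0.13, adjusted p = 0.0442). Slc25a30, a mitochondrial carrier, had 9.89, 25.2 and 45.8 CPM in CMA livers, against 30.3, 36.7 and 59.2 CPM in HFD livers. A total of 13 CMA libraries were below the HFD range (-0.57 ± 0.16, adjusted p = 0.0563), and the call was lost without H118 or H119. Arhgef15, known from endothelium (-0.46 ± 0.13, adjusted p = 0.0563), was lost without H118, and Cntnap1, best known from nerve (-1.20 ± 0.34, adjusted p = 0.0565), without H110. Between the doses, the unadjusted p of these 10 genes in edgeR's test ran from 0.367 (Arhgef15) to 0.849 (Cntnap1). The choice of genes called only with the doses pooled favours genes alike at both doses. These p-values therefore cannot test whether the doses agree.

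**Figure D5:**
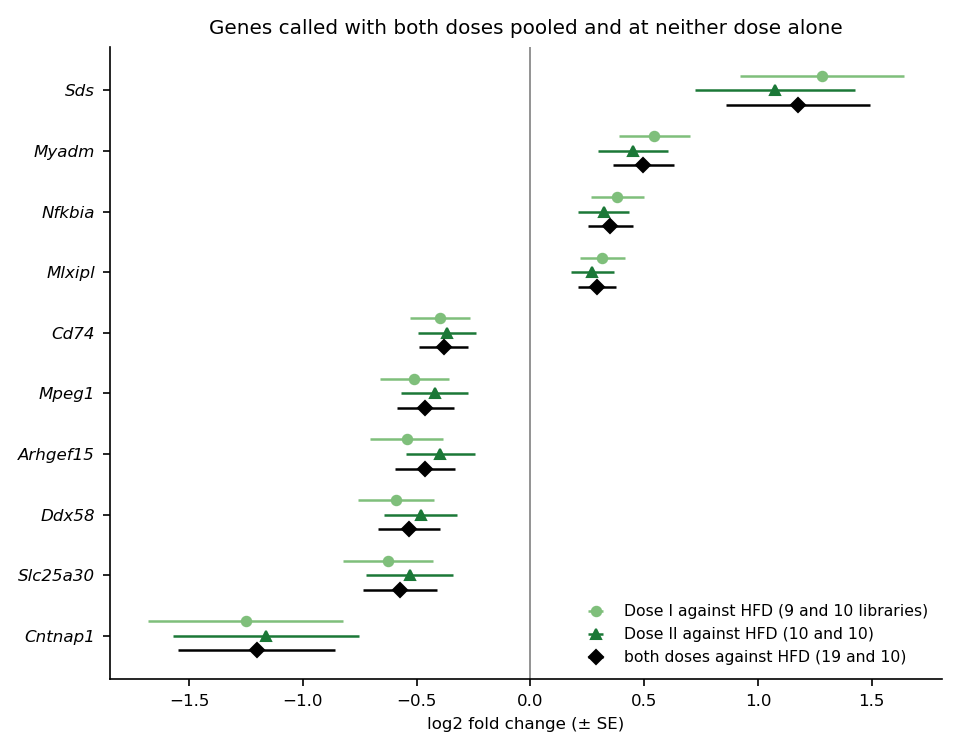
Log2 fold changes against HFD (points, bars ± SE) for the 10 genes with the smallest adjusted p among those called with the doses pooled and at neither dose, with Dose I as circles, Dose II as triangles and both doses as diamonds. The pooled estimate of Sds, 1.18, lies between 1.28 at Dose I and 1.07 at Dose II, and its bar is the shortest of the 3. Without DI127 the pooled estimate of Sds was 0.91. The pooled fit holds the libraries of both doses, so this is no separate evidence.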

How the data were processed

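RNA was sequenced from whole liver, 1 library per sample label. The authors quantified transcripts with kallisto on hamster transcripts of Ensembl 101 (MesAur1.0), a method that can split reads between similar genes, and deposited per symbol an estimated count and a TPM value. The deposited estimated counts (13.2% were not whole) were rounded, and genes passing filterByExpr were kept (8885 of 14631). All columns matched a labelled sample.

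CMA was tested against HFD in 29 libraries with edgeR 4.0.16 (TMM, quasi-likelihood test, R 4.3.3), with Benjamini-Hochberg adjustment over all tested genes at 0.1, the threshold of the study. A fit with a coefficient per dose gave the dose comparisons. DESeq2 1.42.0, which the authors used, limma 3.58.1 on log2 of the deposited TPM plus 1 or 0.1, other filters and scalings, 8 of the 9 controls in the fit (the ninth was left out, as in the study), a transcript length offset and leaving out each library were alternatives. The principal component used log2 CPM with a prior count of 2. Its permutation test of CMA against HFD used 1e+05 resamples, and the comparisons of single doses were exact. The script was tested on simulated data. Totals of 4669860 to 8417320 counts limit precision for low genes.

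The text names the 10 genes of smallest adjusted p in each direction and of those called at neither dose, at a mean CPM of at least 1, and up to 4 members per list. Ones added for their known role, whether called or not, were picked with values in view. A few genes that this rule names are not reported here. Members and lists were chosen with earlier results of these data known. Sequences were not used here.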

Additional observations from a re-analysis of the deposited data

Results flagged for a closer look

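Among the 29 libraries, a single library stood far from the rest of its group, by Dixon's criterion at 95%, in 8 of 154 tested groups of values. These covered the named genes and the library measures, and all 8 were named genes. Chance alone flags about 1 in 20 groups. H118 accounted for 4 of the 8. It was the lowest HFD library for Acsm1 (576 CPM, with the next at 719 CPM), Nr1i3 (189 CPM, with the next at 253 CPM) and Phgdh (1.40 CPM, with the next at 3.39 CPM), and the highest for Plin2 (2539 CPM, with the next at 950.2 CPM). H113 was the lowest for Copb2 (104.1 CPM, with the next at 118.2 CPM) and Hoga1 (205 CPM, with the next at 268 CPM). H111 was the highest for Ddx58 (9.03 CPM, with the next at 6.16 CPM). At Dose I, DI127 was the highest for Sds (410.3 CPM, with the next at 128.4 CPM). Of these genes, Plin2 lost its call without H118, while Acsm1, Nr1i3, Copb2, Hoga1, Ddx58 and Sds were called in all 29 fits that left out a library.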

How the results depend on the processing

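Shares are of the genes tested under each setting. With DESeq2, 3.73% of tested genes rose and 2.87% fell with the doses pooled, and 70 genes changed at Dose I and 621 at Dose II. Limma on log2(TPM + 1) gave 1.26% that rose, 4.38% that fell and 148 genes called at neither dose, and log2(TPM + 0.1) gave 1.24%, 4.097% and 142 genes. At a threshold of 0.05 on the adjusted p, 1.26% rose and 0.732% fell, with 2 genes called at Dose I, 191 at Dose II and 33 at neither dose, and with no filter on low counts Dose I gave 5. The first principal component over all genes differed by 8.95 (permutation p = 0.0849). Leaving out 1 library gave 1.41% (H114) to 3.31% (DI122) that rose, 0.920% (H118) to 2.57% (DI122) that fell, 31 (H118) to 186 (DI122) genes called at neither dose, 2 to 49 at Dose I, 221 (DII135) to 565 (DII133) at Dose II and 0 between the doses, and a component difference of 6.52 to 8.91. Of 93 named genes that were called, 61 were called in every fit that left out a library and 57 also in every other setting at 0.1, and none of the named genes turned direction as a call. No paired analysis was possible because no label links a library of a group to a library of another. The cause of the differences between settings was not tested. Low genes such as Cyp26a1 and Insrr rest on few counts per library.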

Other observations

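Of 27 cytosolic ribosomal proteins, 3 rose and none fell, against 2.42% of all tested genes that rose. Their median was 0.14 on the log2 scale, 25 of 27 were above 0 and 16 had an unadjusted p below 0.05 in edgeR's test. The count ran from 1 (without H111) to 7 (without DII133). The rank correlation with transcript length had a median of -0.0079 in CMA and 0.0833 in HFD libraries. The part of transcript length in the shift of the ribosomal list was not tested. Of 30 genes of the TCA cycle and pyruvate entry, 2 rose and 1 fell. Of 61 lysosomal genes, 1 rose (0 to 2 when a library was left out, lowest without H110 among others and highest without H119) and 2 fell (1 without H114 to 4 without H111). No gene was called by edgeR's test among 37 autophagy genes, 40 proteasome genes, 62 spliceosome genes, 23 cell cycle genes and 28 genes of matrix and fibrosis, against 4.27% of all tested genes. At an unadjusted p below 0.05 the numbers were 4, 5, 4, 3 and 7 in the same order, and DESeq2 called 1 proteasome gene as higher and 1 cell cycle gene as lower. The list medians of matrix and fibrosis and of the cell cycle were -0.22 and -0.17 on the log2 scale of CMA over HFD, against -0.0017 for all tested genes, and 23 of the 28 matrix genes were below 0. Without DI122, 5 matrix genes fell.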
